A study of Naumovozyma castellii with 24 samples.

Results

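The wild type of the yeast Naumovozyma castellii was compared after 6 h of growth at 1% oxygen and at 21% oxygen. The comparison was defined by the labels of the samples, which gave 3 libraries in hypoxia (1% oxygen) and 3 in normoxia (21% oxygen), 6 of the 24 libraries of the series. The other 18 libraries came from a separate experiment on ROX gene deletions and CoCl2, with its own wild type, and were not used here. Cells of both groups were wild type in the strain background DBP004. They had grown overnight in rich medium (YPD) at 30 °C in 21% oxygen and were then diluted into 50 ml of fresh YPD, at a starting A600 of 0.2, for the 6 h. Per the labels, the groups differed in the oxygen level of those hours. RNA was sequenced as strand-specific paired-end libraries with reads of 90 bp. It had been extracted with 1 of 2 kits, and the labels do not say which kit served which sample. The series' design text calls the libraries of a group biological replicates.

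Yeasts need molecular oxygen as the final electron acceptor of respiration and as a substrate for several syntheses, among them those of haem, sterols and unsaturated fatty acids. In S. cerevisiae, a relative of N. castellii, haem serves as an internal signal of oxygen: the activators Hap1 and Hap2/3/4/5 switch on respiratory genes while haem is plentiful, and the repressor Rox1 keeps a set of hypoxic genes off. Sterol genes there are also under the control of the sterol sensor Upc2. Reactive oxygen species, which arise from respiration, are removed by superoxide dismutases, catalases and peroxiredoxins. Gene roles below are those known from S. cerevisiae.

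Counts were deposited for 5648 genes, and each library held 11.99 M to 12.13 M gene counts in hypoxia and 11.99 M to 12.18 M in normoxia. A further 9.38% to 10% of reads lay outside genes in hypoxia, against 9.08% to 10.5% in normoxia (two-sided exact permutation test, p = 0.8, where 3 against 3 libraries can reach 0.1 at best). The first principal component, which took 47.8% of the variance, separated the groups, with hypoxia at −9.19 to −6.1 and normoxia at 7.45 to 8.63. Levels are given as CPM, counts scaled to a common library size with TMM, a normalization that allows for library composition. A gene is called higher or lower where its adjusted p is under 0.05 in the edgeR quasi-likelihood test with Benjamini-Hochberg adjustment over the 5559 genes tested, and all adjusted p-values below are of that kind. Each of the 6 libraries was also left out in turn, and where this ended the call of a named gene, the number of libraries with that effect is given with the highest adjusted p.

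A limited number of genes differed between 1% and 21% oxygen, mostly by less than 2-fold. Of 5559 genes tested, 361 were called (6.49%), of which 147 were higher (2.64%) and 214 lower (3.85%) at 1% oxygen. Only 5 of the higher and 20 of the lower genes differed by at least 2-fold, and 25 and 63 by at least 1.5-fold. The median log2 fold change of hypoxia over normoxia was 0.36 among the genes called higher and −0.41 among those called lower. Over all tested genes it was −0.003, and 81.1% of genes lay within 0.2 of 0. In all 361 called genes the values of the 2 groups did not overlap, which held for 1531 of all tested genes (27.5%). Calls were more frequent among abundant genes: 0.73% of the 137 genes with a mean log2 CPM under 2 were called, and 12.2% of the 123 genes at 10 or more. The number called depended on single libraries, with 193, 194 and 235 genes called without hypoxia replicates 1, 2 and 3, and 169, 411 and 348 without normoxia replicates 1, 2 and 3. With the replicate number as a block, 741 genes were called (13.3%), 302 higher (5.43%) and 439 lower (7.9%). Counts of called genes in the lists below are to be read against these shares of all tested genes, without or with the block.

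**Figure D1:**
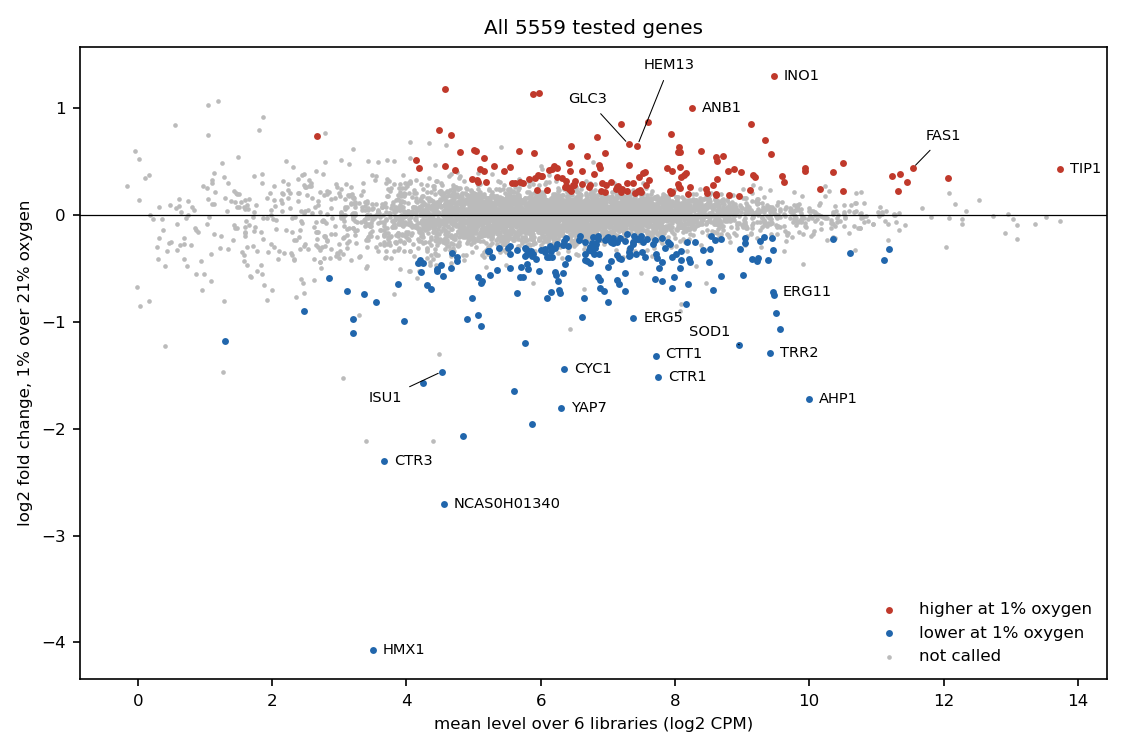
The plot of all genes shows the log2 fold change (1% over 21% oxygen) of each of the 5559 tested genes against its mean level in log2 CPM, with genes called higher in red, genes called lower in blue and the rest in grey. The lower genes extend further from 0 than the higher ones, down to −4.07 for HMX1, against 1.30 for INO1 on the upper side.

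Genes for the removal of peroxide and superoxide were lower at 1% oxygen. Of the 31 tested members of this list, 13 fell and none rose in the edgeR test, with a median log2 fold change of −0.18. DESeq2 also called none higher, and 1 member was higher at an unadjusted p under 0.05. In all tested genes, 3.85% were lower and the median was −0.003. Together the list made up 5999 to 6089 CPM in hypoxia and 9750 to 10110 CPM in normoxia. In bulk RNA, fewer cells with a transcript and less of it per cell cannot be told apart.

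The peroxiredoxins, small thiol enzymes that reduce peroxides, carried much of this difference. AHP1 stood at 495, 454 and 479 CPM in hypoxia, against 1540, 1450 and 1740 CPM in normoxia (log2 fold change −1.73, SE 0.073, adjusted p = 2.12e-06). TSA1 stood at 497, 496 and 473 CPM in hypoxia and at 1000, 1020 and 1050 CPM in normoxia (log2 −1.07, SE 0.049). In both genes the 3 hypoxic libraries lay close together and far below the normoxic ones. TSA2 also fell (log2 −0.92, SE 0.081), as did SRX1, which encodes sulfiredoxin, the enzyme that restores over-oxidised peroxiredoxins (log2 −1.04, SE 0.083). TRR2, for a thioredoxin reductase, an enzyme that keeps thioredoxin reduced, had 396, 399 and 395 CPM in hypoxia and 925, 990 and 992 CPM in normoxia (log2 −1.29, SE 0.05). The other thioredoxin reductase gene, TRR1, was not called, as given below.

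CTT1, the gene of the cytosolic catalase, had 125, 121 and 113 CPM in hypoxia, against 322, 280 and 295 CPM in normoxia (log2 −1.32, SE 0.066, adjusted p = 3.86e-06). CTA1, the gene of the peroxisomal catalase, had only 7.45 to 9.11 CPM in hypoxia and 6.77 to 9.99 CPM in normoxia, and its groups overlapped. Both superoxide dismutase genes fell. SOD1, for the cytosolic copper-zinc enzyme, had 296, 316 and 288 CPM in hypoxia and 652, 749 and 693 CPM in normoxia (log2 −1.22, SE 0.064, adjusted p = 4.33e-06). SOD2, for the mitochondrial manganese enzyme, had 289, 276 and 295 CPM in hypoxia, against 466, 447 and 490 CPM in normoxia (log2 −0.71, SE 0.053).

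Several other members of this list were not called, among them the glutathione reductase gene GLR1 (log2 −0.04, SE 0.053), the thioredoxin reductase gene TRR1 (−0.02, SE 0.055) and CCP1, for mitochondrial cytochrome c peroxidase (0.05, SE 0.082). YAP1, the gene of the main activator of this system in S. cerevisiae, fell to 578 to 603 CPM in hypoxia, against 653 to 706 CPM in normoxia (log2 −0.21, adjusted p = 0.0385). The call of YAP1 was lost without each of 5 libraries (all but normoxia replicate 3), with an adjusted p of up to 0.171 without normoxia replicate 1. TRX2, for a thioredoxin, fell by 0.43 on the log2 scale, and its adjusted p was 0.0517 without hypoxia replicate 1. With the replicate block, GSH1, for the first step of glutathione synthesis, was called lower and the glutaredoxin gene GRX7 higher (adjusted p = 0.0317 and 0.0417).

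**Figure D2:**
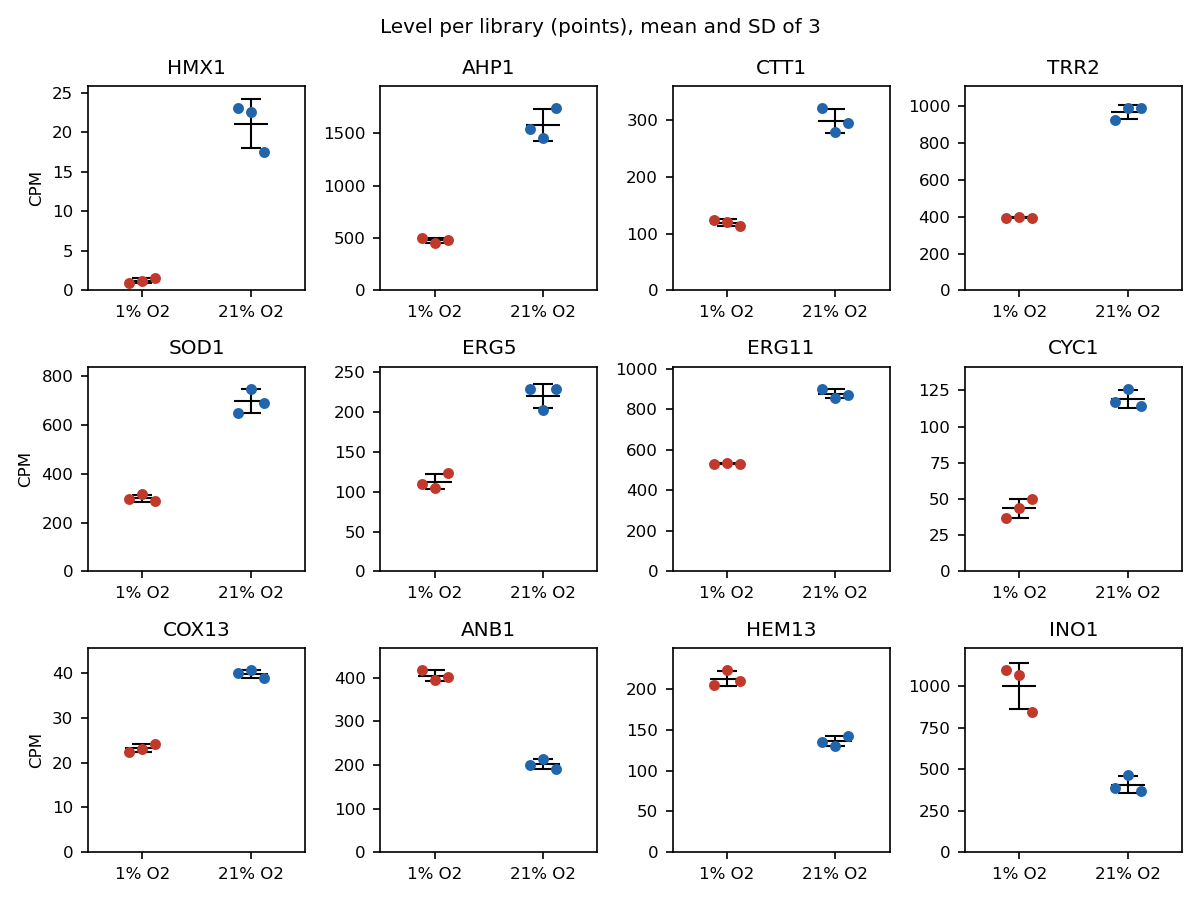
The plot of levels per library shows CPM of 12 genes in hypoxia (red) and normoxia (blue), with each library as a point and the mean and SD of 3 as bars, on axes that start at 0. In all 12 genes the groups do not overlap: HMX1, AHP1, CTT1, TRR2, SOD1, ERG5, ERG11, CYC1 and COX13 lie lower in hypoxia, and ANB1, HEM13 and INO1 higher.

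Most genes of the ergosterol pathway were lower. Of 24 tested genes, 19 fell and none rose in the edgeR test, with a median log2 fold change of −0.43, against 3.85% of all tested genes lower and a median of −0.003. DESeq2 and an unadjusted p under 0.05 likewise gave no higher gene in this list, nor in the lists of complexes III and IV, iron-sulfur cluster assembly, the mitochondrial ribosome and protein import described further on. Their summed level was 5210, 5436 and 5470 CPM in hypoxia and 7410, 7533 and 7419 CPM in normoxia. The 5 members not called were ERG29, ERG27, ERG4, ERG7 and NCP1, with log2 fold changes of −0.24 to 0.07. ERG24 lost its call without 5 libraries, with an adjusted p of up to 0.105 without hypoxia replicate 2.

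In the early part of the pathway, which makes mevalonate and isoprenoid units from acetyl-CoA, HMG1 for HMG-CoA reductase had 394, 435 and 427 CPM in hypoxia, against 607, 650 and 598 CPM in normoxia (log2 −0.56, SE 0.057). ERG13 (log2 −0.58), ERG12 (−0.50), MVD1 (−0.68) and IDI1 (−0.68), which act just before and after it, fell by similar amounts. NSG1, whose product stabilises HMG-CoA reductase in S. cerevisiae, fell as well (log2 −0.62, SE 0.097). ERG8, in the same part, fell by 0.28 on the log2 scale, but its call was lost without any 1 hypoxic library or normoxia replicate 1, where its adjusted p reached 0.0686.

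Several later steps consume oxygen directly. ERG11, for lanosterol demethylase, had 529, 534 and 532 CPM in hypoxia and 900, 857 and 870 CPM in normoxia (log2 −0.72, SE 0.046, adjusted p = 2.09e-05). ERG5, for the C-22 sterol desaturase, had 110, 105 and 123 CPM in hypoxia, against 229, 203 and 229 CPM in normoxia (log2 −0.97, SE 0.071). ERG1, for squalene epoxidase (log2 −0.44, SE 0.051), and ERG25, for the C-4 methyl oxidase (log2 −0.43, SE 0.052), fell less. ERG7, whose cyclase makes lanosterol without oxygen, had 64.4 to 71.3 CPM in hypoxia and 67.2 to 74.7 CPM in normoxia and was not called (log2 −0.06, SE 0.066). ERG28, for a scaffold of the demethylation complex, had 57, 62.9 and 78.5 CPM in hypoxia, against 136, 127 and 123 CPM in normoxia (log2 −0.96, SE 0.103).

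The electron donors of these enzymes differed from each other. CYB5, for cytochrome b5, had 166, 153 and 175 CPM in hypoxia and 263, 214 and 271 CPM in normoxia (log2 −0.60, SE 0.09). NCP1, for the NADPH reductase that serves lanosterol demethylase, had 345, 352 and 320 CPM in hypoxia and 315, 343 and 310 CPM in normoxia, and the groups overlapped (log2 0.07, SE 0.059).

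AUS1, TIR3 and SUT1, which belong to the list of sterol regulation, uptake and esterification, were higher. AUS1, for an ATP-driven sterol importer used by S. cerevisiae without oxygen, had 490, 510 and 501 CPM in hypoxia, against 337, 375 and 315 CPM in normoxia (log2 0.55, SE 0.065, adjusted p = 0.000834). TIR3, for a cell wall mannoprotein of anaerobic S. cerevisiae, had 1600, 1860 and 1630 CPM in hypoxia and 1200, 1340 and 1090 CPM in normoxia (log2 0.49, SE 0.084). SUT1, for a regulator of sterol uptake, had 142, 141 and 122 CPM in hypoxia, against 102, 88.2 and 103 CPM in normoxia (log2 0.47, SE 0.08). The second importer gene, PDR11, was called higher only with the replicate block (log2 0.20, adjusted p = 0.0187, against 0.0666 without it). UPC2 and ECM22, for the sterol regulators, were not called (log2 0.07 and −0.01, SE 0.049 and 0.061). In the whole list of sterol regulation, uptake and esterification, 4 of 13 tested genes rose (AUS1, TIR3, SUT1 and MGA2) and 2 fell (NSG1 and ARE1), with a median of 0.11. The shares were 30.8% higher and 15.4% lower, against 2.64% and 3.85% of all tested genes.

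Nuclear genes of respiratory complexes III and IV were lower. All 8 tested subunit genes of complex IV, cytochrome c oxidase, fell, with a median log2 fold change of −0.59 and a summed level of 295.5, 306.7 and 317.5 CPM in hypoxia against 457.1, 447.2 and 462.5 CPM in normoxia. Among them, COX13 had 22.4, 23 and 24.1 CPM in hypoxia and 39.8, 40.6 and 38.8 CPM in normoxia (log2 −0.78). COX12 had 8.54, 8.03 and 8.42 CPM in hypoxia, against 15.9, 13 and 15.2 CPM in normoxia (log2 −0.82). COX7, COX6, COX9, COX4 and COX8 fell by 0.66 to 0.56 on the log2 scale. The calls of COX9 and COX8 rested on single libraries: the adjusted p of COX9 was 0.0583 without normoxia replicate 1, and that of COX8 reached 0.139 without hypoxia replicate 1 and was also lost without hypoxia replicate 3 and without normoxia replicates 1 and 2. COX5B, which encodes the subunit 5 form of hypoxic S. cerevisiae, had 84.1, 96.1 and 89.8 CPM in hypoxia and 126, 123 and 119 CPM in normoxia, and so was lower at 1% oxygen (log2 −0.45, SE 0.061, adjusted p = 0.00181). The annotation table gave no gene the symbol of its aerobic counterpart, COX5A.

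Of 14 genes of complex III, the cytochrome bc1 complex, and its assembly, 8 fell and none rose, with a median of −0.38. QCR8 (log2 −0.70, SE 0.116), QCR7 (−0.62, SE 0.074), QCR2 (−0.48, SE 0.049) and COR1 (−0.36, SE 0.055) kept their calls in all 11 alternative analyses. QCR6 and QCR10 (log2 −0.58 and −0.53) lost theirs without any 1 hypoxic library, QCR6 also without normoxia replicates 1 and 3. Their adjusted p reached 0.136 without hypoxia replicate 2 and 0.108 without hypoxia replicate 1. RIP1 lost its call without 3 libraries, with an adjusted p of up to 0.0753 without normoxia replicate 1. CYT1 (log2 −0.39) lost its call without normoxia replicate 1, with 0.0925. The assembly genes BCS1, CBP1, CBP3, CBP4 and MZM1 were not called (log2 −0.25 to 0.02). Cytochrome c passes electrons between the complexes, and its gene CYC1 fell to 37, 44 and 50.2 CPM in hypoxia, against 117, 126 and 114 CPM in normoxia (log2 −1.44, SE 0.099, adjusted p = 3.13e-05).

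In the other parts of respiration few genes were called. In complex II, succinate dehydrogenase, 1 of 7 genes rose and 1 fell (median −0.22), and the subunit genes SDH1, SDH3 and SDH4 were not called (log2 −0.13, −0.22 and −0.03). The lowest log2 fold change of complex II was −0.59, in a gene not called. DESeq2 called 1 gene of complex II higher and 2 lower, as did the fit with the replicate block. The genes called without the block were assembly factors, SDH6 higher (log2 0.41) and TCM62 lower (−0.24), and their calls were lost without 4 and 5 libraries. The adjusted p of SDH6 reached 0.137 without hypoxia replicate 1 and that of TCM62 0.145 without normoxia replicate 1. In complex V, the ATP synthase, 1 of 21 genes fell (median −0.13). That gene was TIM11 (log2 −0.34), whose call was lost without 5 libraries, with 0.195 without normoxia replicate 1. TIM11 and TCM62 also lost their calls with total counts as the scaling. In the list of the TCA cycle 1 of 20 fell (median −0.09), which was IDP1 (log2 −0.22, lost without 5 libraries, with 0.114 without normoxia replicate 1). The lowest log2 fold change of that list, −0.80, belonged to a gene not called. The shares called lower in complex V and the TCA cycle were near that of all tested genes, 3.85%. Of 21 assembly factors of complex IV only the copper chaperone gene COX17 was called. It had 203, 186 and 233 CPM in hypoxia, against 362, 407 and 342 CPM in normoxia (log2 −0.84, SE 0.089).

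**Figure D3:**
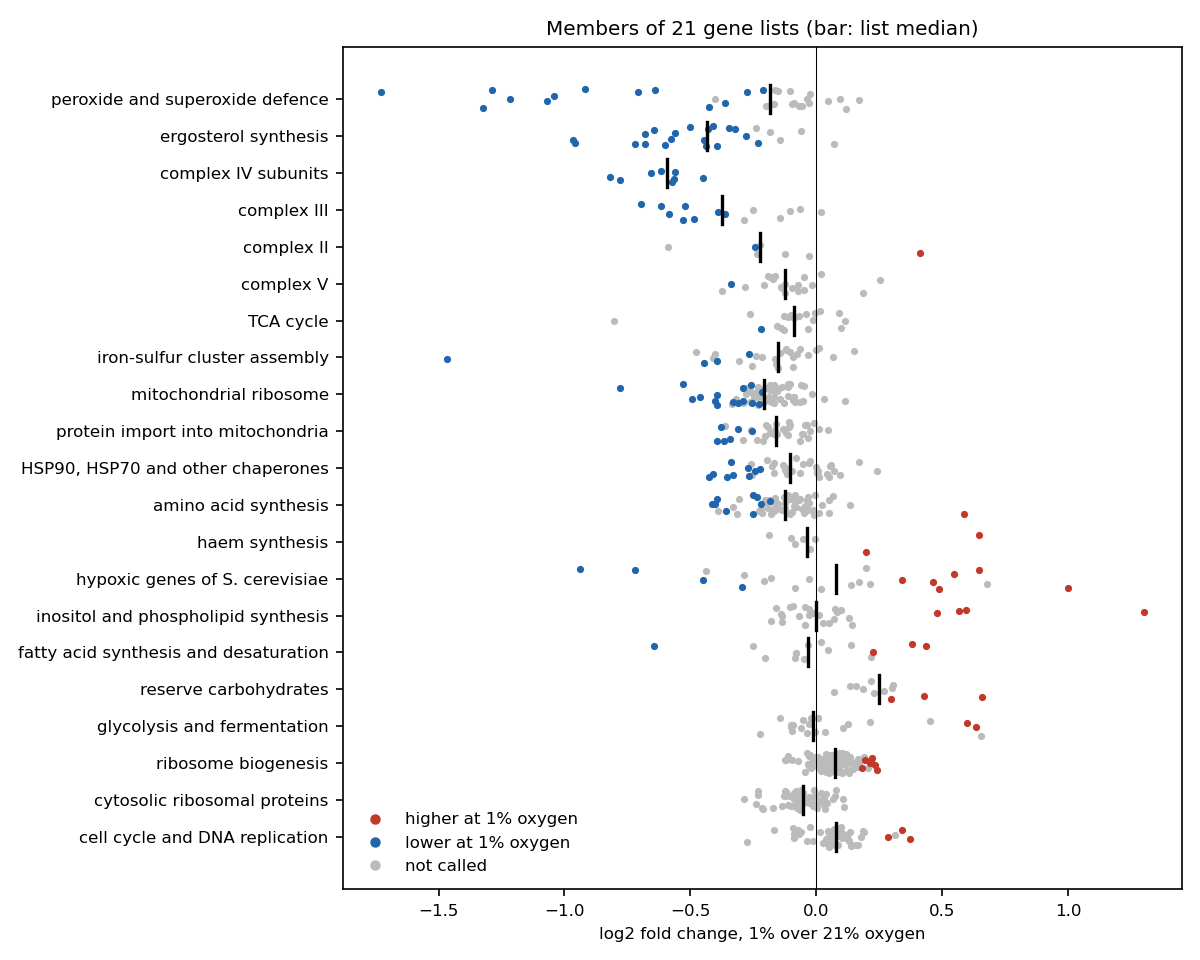
The plot of gene lists shows the log2 fold change (1% over 21% oxygen) of every tested member of 21 lists, red where called higher, blue where called lower and grey where not called, with a black bar at the list median. Complex IV subunits (median −0.59), ergosterol synthesis (−0.43) and complex III (−0.38) lie left of 0, whereas reserve carbohydrates (0.25) lie right of it.

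Many other genes for mitochondrial proteins had small negative fold changes. Of 73 genes of the mitochondrial ribosome, 15 fell and none rose, and 71 had a negative log2 fold change (median −0.21), whereas 2829 of all 5559 tested genes were negative. Their summed level was 5437, 5383 and 5309 CPM in hypoxia and 6254, 6043 and 6314 CPM in normoxia. MRP51 had 71.5, 71.6 and 74.1 CPM in hypoxia, against 98.8, 91.7 and 96.3 CPM in normoxia (log2 −0.40, SE 0.055), and RSM7 fell by 0.39 (SE 0.063). MRP51 and RSM7 were called in all 11 alternative analyses. The number of members that fell was 36 with the replicate block and between 3 and 36 over the 11 alternatives. Small negative fold changes were not confined to genes for mitochondrial proteins. Of 39 tested genes of the proteasome and ubiquitin, 37 were negative and 2 positive (median −0.14). In that list 3 fell (7.69%, against 3.85% of all tested genes) and none rose, with 0 to 11 lower over the 11 alternatives.

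Of 35 genes of protein import into mitochondria, 6 fell (17.1%, against 3.85% of all tested genes) and none rose. Of the 35 genes, 33 were negative (median −0.16). TIM9, MAS1, MGR2 and TIM17 had log2 fold changes of −0.39 to −0.34. All 4 calls were lost without normoxia replicate 1 and without 1 to 4 other libraries, with adjusted p of up to 0.108 for TIM17, and over the 11 alternatives between 0 and 14 members of this list were called lower. The mitochondrial chaperone genes SSC1, for the import motor, and HSP10, for a chaperonin, fell (log2 −0.35 and −0.41, SE 0.053 and 0.055). Both came from a list of HSP90, HSP70 and other chaperones. In it 9 of 38 tested genes fell (23.7%, against 3.85% of all tested genes) and none rose, with 26 negative and 12 positive. CPR6 (log2 −0.34, SE 0.048) and HSC82 (−0.43, SE 0.109, described further on), for chaperones outside mitochondria, also fell. SSC1 had 1380, 1330 and 1390 CPM in hypoxia and 1720, 1680 and 1840 CPM in normoxia. The chaperonin gene HSP60 fell by 0.22, and its call was lost without any 1 library, with adjusted p of 0.0598 to 0.109. PET9, for the ADP/ATP carrier of the inner membrane, had 123, 131 and 118 CPM in hypoxia and 174, 177 and 189 CPM in normoxia (log2 −0.54, SE 0.058). PET9 was the only gene called among 21 mitochondrial carriers (4.76%, near the 3.85% of all tested genes). Of these carriers 17 were negative and 4 positive (median −0.10).

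Iron, copper and haem genes included the largest single difference of the comparison. HMX1, for haem oxygenase, which degrades haem and frees its iron, had 0.977, 1.16 and 1.6 CPM in hypoxia, against 23.1, 22.6 and 17.5 CPM in normoxia (log2 −4.07, SE 0.207, adjusted p = 3.97e-06). These levels came from 12, 14 and 19 counts in hypoxia and 282, 273 and 210 counts in normoxia. The hypoxic libraries were thus all near 1 CPM, with no overlap.

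In haem synthesis 2 of 8 genes rose (25%, against 2.64% of all tested genes), HEM13 and HEM12, and the median was −0.04. HEM13, for coproporphyrinogen oxidase, which uses oxygen, had 205, 223 and 209 CPM in hypoxia, against 135, 130 and 142 CPM in normoxia (log2 0.65, SE 0.055, adjusted p = 0.000135). HEM12, for the step before it, rose by 0.20, but kept its call only where the library left out was normoxia replicate 2, and its adjusted p reached 0.158 without normoxia replicate 1. HEM14, for the oxygen-using step after it, was not called (log2 −0.08, SE 0.058).

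Both high-affinity copper transporter genes fell. CTR3 had 2.69, 5.05 and 4.97 CPM in hypoxia, against 16.4, 23.3 and 22.8 CPM in normoxia (log2 −2.30, SE 0.226, adjusted p = 0.000278). CTR1 had 74.8, 139 and 120 CPM in hypoxia and 249, 413 and 293 CPM in normoxia (log2 −1.52, SE 0.226, adjusted p = 0.0034). In both genes, replicate 1 was the lowest library of each group. Together with SOD1 and COX17, whose products bind copper, they were the 4 of 13 copper genes called lower (30.8%, against 3.85% of all tested genes). No copper gene was called higher by edgeR or DESeq2 (2 were higher at an unadjusted p under 0.05). MAC1, whose product activates the copper transporter genes in S. cerevisiae, was not called (log2 −0.06, SE 0.078).

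In the list of iron uptake, 2 of 11 tested genes rose, FTR1 and FET4, and 1 fell, which was HMX1 (median 0.04). The shares were 18.2% higher and 9.09% lower, against 2.64% and 3.85% of all tested genes. FTR1, for the high-affinity iron permease, had 1070, 1150 and 1180 CPM in hypoxia, against 772, 862 and 870 CPM in normoxia (log2 0.44, SE 0.063, adjusted p = 0.00232). FET3, for the multicopper oxidase that works with it, had 1700, 1790 and 1810 CPM in hypoxia and 1380, 1520 and 1700 CPM in normoxia, and was called higher only with the replicate block (adjusted p = 0.0202, against 0.15 without it). AFT1 and AFT2, for the iron regulators, were not called (log2 −0.06 and −0.10). ISU1, for the scaffold on which iron-sulfur clusters are built, had 11.6, 14.1 and 10.9 CPM in hypoxia, against 32.8, 31 and 37.5 CPM in normoxia (log2 −1.47, SE 0.122, adjusted p = 0.000126). With the block 10 of 27 genes of iron-sulfur cluster assembly fell, against 7.9% of all tested genes. Without it 4 fell (14.8%, against 3.85%) and none rose (median −0.15). Besides ISU1 these 4 were BOL1, NFU1 and IBA57 (log2 −0.45, −0.39 and −0.27), whose calls were lost without 5, 3 and 3 libraries, with adjusted p of up to 0.191 without normoxia replicate 1 for BOL1, 0.0898 without normoxia replicate 1 for NFU1 and 0.101 without hypoxia replicate 1 for IBA57.

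The genes that are hypoxic in S. cerevisiae were divided. With the replicate block 10 of 22 tested rose and 5 fell, against 5.43% and 7.9% of all tested genes. Without it 6 rose (27.3%, against 2.64%) and 4 fell (18.2%, against 3.85%), with a median log2 fold change of 0.08. The 6 were ANB1, HEM13, AUS1, TIR3, SUT1 and the low-affinity metal transporter gene FET4 (log2 0.34, lost without 4 libraries, with an adjusted p of 0.126 without normoxia replicate 1). The 4 that fell were the flavohaemoglobin gene YHB1, ERG11, COX5B and ARE1, for a sterol acyltransferase (log2 −0.30, lost without 4 libraries, with an adjusted p of 0.147 without normoxia replicate 1). YHB1, whose product detoxifies nitric oxide with oxygen, had 20.7, 22.9 and 25.2 CPM in hypoxia, against 43.6, 46.7 and 41.4 CPM in normoxia (log2 −0.94, SE 0.093). OLE1, for the oxygen-using fatty acid desaturase, had 6090, 6070 and 6420 CPM in hypoxia and 5330, 5650 and 5910 CPM in normoxia. The groups of OLE1 did not overlap, but the difference was called only with the replicate block (log2 0.14, adjusted p = 0.0456, against 0.201 without it).

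In 3 gene pairs of S. cerevisiae, one member is used in air and the other without oxygen, and both had symbols in N. castellii. ANB1, for the hypoxic form of the translation factor eIF5A, had 418, 394 and 402 CPM in hypoxia, against 201, 215 and 191 CPM in normoxia (log2 1.00, SE 0.057, adjusted p = 7.15e-06). HYP2, for the aerobic form, had 2110, 2050 and 2090 CPM in hypoxia and 2690, 2510 and 2610 CPM in normoxia (log2 −0.32, SE 0.05, adjusted p = 0.00428). Of the counts of both genes, ANB1 took 16.3% ± 0.246 in hypoxia and 7.22% ± 0.576 in normoxia (SD, n = 3 each). LIA1, for an enzyme that modifies eIF5A, rose by 0.36 (SE 0.063), with an adjusted p of 0.0534 without normoxia replicate 1.

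In the cytochrome c pair, CYC7 took 60.5%, 50.7% and 51.7% of the counts of both genes in hypoxia, against 26.3%, 26.3% and 29.5% in normoxia. CYC1 fell, as given above, whereas CYC7, at 56.6, 45.1 and 53.8 CPM in hypoxia and 41.7, 45 and 47.5 CPM in normoxia, overlapped between the groups and was not called (log2 0.21, SE 0.094, adjusted p = 0.218). In the ADP/ATP carrier pair, AAC3 took 69.3% ± 2.26 in hypoxia and 63.7% ± 3.01 in normoxia (SD, n = 3 each), and the groups overlapped. The shares differed with p = 0.1 for cytochrome c and eIF5A and p = 0.2 for the carriers (two-sided exact permutation tests, of which the smallest possible p is 0.1). Genes of different lengths collect reads in proportion to length, so the shares compare conditions and not the level of one gene with that of the other. Reads that match several places are not recorded in these counts, which makes the levels of similar genes such as ANB1 and HYP2 less certain.

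**Figure D4:**
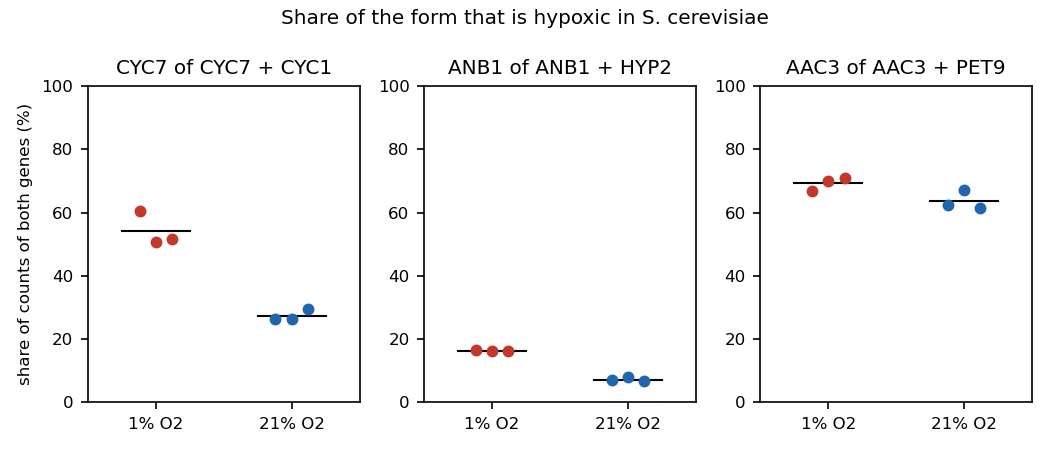
The plot of gene pairs shows, for each library in hypoxia (red) and normoxia (blue), the percentage of the counts of both genes that belongs to the member used without oxygen in S. cerevisiae, with the mean as a line. For CYC7 and ANB1 all hypoxic libraries lie above all normoxic ones, and for AAC3 the groups overlap.

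Among 20 regulators that respond to oxygen, haem, iron or oxidants in S. cerevisiae, 2 fell and 2 rose. Each share was 10%, against 3.85% lower and 2.64% higher of all tested genes. YAP7, for a factor that represses YHB1 in S. cerevisiae, had 32.1, 35.3 and 37.8 CPM in hypoxia, against 130, 128 and 109 CPM in normoxia (log2 −1.81, SE 0.088, adjusted p = 3.86e-06). YAP1, given above, was the other that fell, and SUT1 and MGA2 were the ones that rose. MGA2, for an activator of OLE1, had 1580, 1520 and 1620 CPM in hypoxia and 1330, 1370 and 1330 CPM in normoxia (log2 0.23, SE 0.049, adjusted p = 0.0253, lost without 4 libraries, with 0.126 without normoxia replicate 1). HAP4, for the regulatory subunit of the respiratory activator, had 43.3, 50.4 and 73.1 CPM in hypoxia and 111, 170 and 68.5 CPM in normoxia. Its groups overlapped through replicate 3, and it was called lower with the replicate block but not without it (log2 −1.07, SE 0.292, adjusted p = 0.0608 without and 0.0301 with the block). HAP1 likewise passed only with the block (log2 −0.20, adjusted p = 0.0152 with it). ROX1 had 33.9, 38.6 and 42.6 CPM in hypoxia and 47.8, 54.5 and 37.8 CPM in normoxia, and the groups overlapped (log2 −0.29, SE 0.132, adjusted p = 0.244). HAP2, HAP3, HAP5, MOT3, TUP1 and IXR1 had log2 fold changes of −0.00 to 0.11 and were not called.

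Genes of lipid supply outside the sterol pathway were higher at a few defined points. INO1, for inositol phosphate synthase, had 1100, 1070 and 845 CPM in hypoxia, against 389, 465 and 370 CPM in normoxia (log2 1.30, SE 0.112, adjusted p = 0.000149), the largest rise among all called genes. ITR1, for the inositol importer (log2 0.57, SE 0.065), INO2, for the activator of INO1 (0.60, SE 0.081), and OPI1, for its repressor (0.48, SE 0.078), also rose. ITR1 had 861, 863 and 751 CPM in hypoxia and 560, 534 and 576 CPM in normoxia. These 4 were the only genes called among 26 of inositol and phospholipid synthesis (15.4%, against 2.64% of all tested genes). The median of the list was −0.00, and 4 genes of it were called higher in each of the 11 alternatives.

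The fatty acid synthase genes rose together: FAS1 had 3460, 3300 and 3540 CPM in hypoxia, against 2390, 2640 and 2590 CPM in normoxia (log2 0.44, SE 0.058), and FAS2 had 2920, 2940 and 3000 CPM in hypoxia, against 2110, 2460 and 2240 CPM in normoxia (log2 0.38, SE 0.062). ELO1, for an elongase of medium chains, fell (log2 −0.64, SE 0.084). In the list of fatty acid synthesis and desaturation, 3 of 15 tested genes rose (20%, against 2.64% of all tested genes): FAS1, FAS2 and MGA2. ELO1 was the 1 that fell (6.67%, against 3.85%). The list did not rise as a whole, with 7 genes positive, 8 negative and a median of −0.03. In sphingolipid synthesis 2 of 18 genes rose and 2 fell (11.1% each, against 2.64% and 3.85% of all tested genes). SUR2, for the hydroxylase of long-chain bases, had 315, 333 and 328 CPM in hypoxia, against 224, 242 and 183 CPM in normoxia (log2 0.59, SE 0.089), and DPL1, for the lyase that breaks these bases down, fell (−0.54, SE 0.058). HES1, for an oxysterol-binding protein, had 299, 295 and 331 CPM in hypoxia and 172, 202 and 173 CPM in normoxia (log2 0.76, SE 0.075).

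Genes of reserve carbohydrates had positive fold changes throughout. All 12 tested members were positive, with a median of 0.25. Called higher were 3 of them (25%, against 2.64% of all tested genes), and 7 with the replicate block (against 5.43%). GLC3, for the glycogen branching enzyme, had 193, 210 and 179 CPM in hypoxia, against 119, 134 and 116 CPM in normoxia (log2 0.66, SE 0.074). GSY1, for glycogen synthase, had 83.7, 79.9 and 83.6 CPM in hypoxia and 58.9, 61.1 and 63.8 CPM in normoxia (log2 0.43, SE 0.06). The third was PGM1, for phosphoglucomutase (log2 0.29), whose call was lost without 5 libraries, with 0.131 without normoxia replicate 1.

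Glycolysis and fermentation held 2 called genes among 22, both higher (9.09%, against 2.64% of all tested genes), with a median of −0.01. GLK1, for glucokinase, had 305, 329 and 339 CPM in hypoxia, against 187, 239 and 201 CPM in normoxia (log2 0.64, SE 0.087), and ALD4, for mitochondrial aldehyde dehydrogenase, had 396, 410 and 405 CPM in hypoxia, against 261, 282 and 255 CPM in normoxia (log2 0.60, SE 0.053). Hexose transport, with 9 genes, and gluconeogenesis, the glyoxylate cycle and peroxisomes, with 28, had no called gene in the edgeR test or by DESeq2. At an unadjusted p under 0.05, 1 gene of hexose transport was higher and 3 of the other list were lower. Among the cell wall genes, TIP1, for a mannoprotein, was the gene with the highest mean CPM of all called genes. It had 14500, 16900 and 15400 CPM in hypoxia and 11100, 12400 and 11300 CPM in normoxia (log2 0.43, SE 0.073, with an adjusted p of 0.0519 without normoxia replicate 1).

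The lists of ribosomes, the cell cycle, stationary phase and amino acid synthesis, taken here as following the growth state, had medians between −0.12 and 0.08. The choice of lists sets this range, and reserve carbohydrates, with a median of 0.25, were not among them. None of the 68 cytosolic ribosomal protein genes was called by edgeR or DESeq2 (median −0.05), and 17 were positive and 51 negative. At an unadjusted p under 0.05, 1 was higher and 4 were lower, and 7 were called lower with the replicate block. Of 106 ribosome biogenesis genes 7 rose (6.6%, against 2.64% of all tested genes), and 88 were positive and 18 negative (median 0.08). The number that rose was 14 with the replicate block and 0 to 4 when each of the 6 libraries was left out in turn. In cell cycle and DNA replication 3 of 51 rose (5.88%, against 2.64% of all tested genes), and 40 were positive (median 0.08). They were the G1 cyclin genes CLN1 and CLN2 and the histone H4 gene HHF1 (log2 0.28, lost without 4 libraries, with an adjusted p of 0.176 without normoxia replicate 1). Over the 11 alternatives between 1 and 5 members rose, with 1 without hypoxia replicate 2, hypoxia replicate 3 or normoxia replicate 1. CLN2 had 70, 71.8 and 67.8 CPM in hypoxia and 54.4, 56.3 and 51.3 CPM in normoxia (log2 0.37, SE 0.062). CLN1 rose by 0.34, but lost its call without 4 libraries, with an adjusted p of 0.126 without normoxia replicate 1. In stationary phase and general stress 1 of 23 rose (4.35%, against 2.64%) and 2 fell (8.7%, against 3.85%), with a median of −0.05. CTT1 was among those that fell. Amino acid synthesis had 9 of 65 genes lower (13.8%, against 3.85% of all tested genes) and 1 higher, and 58 were negative (median −0.12). With the replicate block 21 were lower, and 3 or 4 were lower without hypoxia replicate 1, 2 or 3 or normoxia replicate 1. HOM3 and ARO3, for early steps of threonine and aromatic amino acid synthesis, fell by 0.41 and 0.40 (SE 0.048 and 0.062). The higher one was GDH2, for the glutamate dehydrogenase that releases ammonium (log2 0.59, lost without 4 libraries, with an adjusted p of 0.0867 without hypoxia replicate 1). The part of growth rate in these differences was not tested.

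Of the 1100 tested genes with no symbol, 42 were called higher (3.82%, against 2.64% of all tested genes) and 39 lower (3.55%, against 3.85%). Among the 12 largest rises that met the limits on level and overlap, 8 had no symbol, with log2 fold changes of 0.74 to 1.18, and among the 12 largest falls 4 had none, with −2.71 to −1.65. NCAS0H01340 had 5.94, 6.62 and 6.06 CPM in hypoxia, against 38.9, 34.8 and 47.9 CPM in normoxia (log2 −2.71, SE 0.143, adjusted p = 4.33e-06). NCAS0C00240 had 27.2, 34.5 and 37.4 CPM in hypoxia and 12.9, 18.5 and 12.5 CPM in normoxia (log2 1.18, SE 0.167).

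Neighbouring genes were both called in 31 of the 5419 adjacent pairs of the annotation table, of which 9 pairs were both higher, 12 both lower and 10 opposite. Of all tested genes 6.49% were called, and whether neighbours were called together more often than other genes was not tested. ANB1 and CYC1, which are neighbours in S. cerevisiae too, were such an opposite pair (log2 1.00 and −1.44). CTR3 and FAS1 were opposite as well (−2.30 and 0.44), and so were NRG1, for a glucose-dependent repressor, and HEM13 (−0.41 and 0.65). SOD2 and ERG11 (−0.71 and −0.72), YAP1 and ERG6 (−0.21 and −0.41) and HMX1 and RSM18 (−4.07 and −0.78) were neighbours that both fell. RSM18 had an adjusted p of 0.0518 without hypoxia replicate 3, and NRG1 lost its call without 5 libraries, with 0.16 without normoxia replicate 1. The strand setting of the counting is not given in the sources used here, so reads of overlapping neighbours may not have been told apart.

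With the replicate number as a pair between the groups, all 361 calls were kept, each in the same direction, and 380 were added, of which 155 were higher and 225 lower. The added genes had small changes, with a median absolute log2 fold change of 0.23, and 18 of them reached 1.5-fold. The square root of the common dispersion, a measure of the relative spread between replicates, was 0.0527 with the block and 0.0684 without it. CTR1 gained most precision among the named genes: its SE was 0.073 with the block and 0.226 without it, since replicate 1 was low and replicate 2 high in both groups. Its log2 differences between hypoxia and normoxia were −1.73, −1.57 and −1.29 for numbers 1, 2 and 3. The chaperone gene HSC82 had 2080, 1660 and 1950 CPM in hypoxia and 2690, 2150 and 2820 CPM in normoxia, with differences of −0.37, −0.37 and −0.53, and it had an adjusted p of 0.0491 without the block and 0.000178 with it. Without the block its call was lost without any single library except normoxia replicate 2, with an adjusted p of up to 0.176 without normoxia replicate 1, and also with total counts and without the low-count filter. AAC3 was called lower only with the block (log2 −0.18, adjusted p = 0.0386 with it and 0.322 without it).

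**Figure D5:**
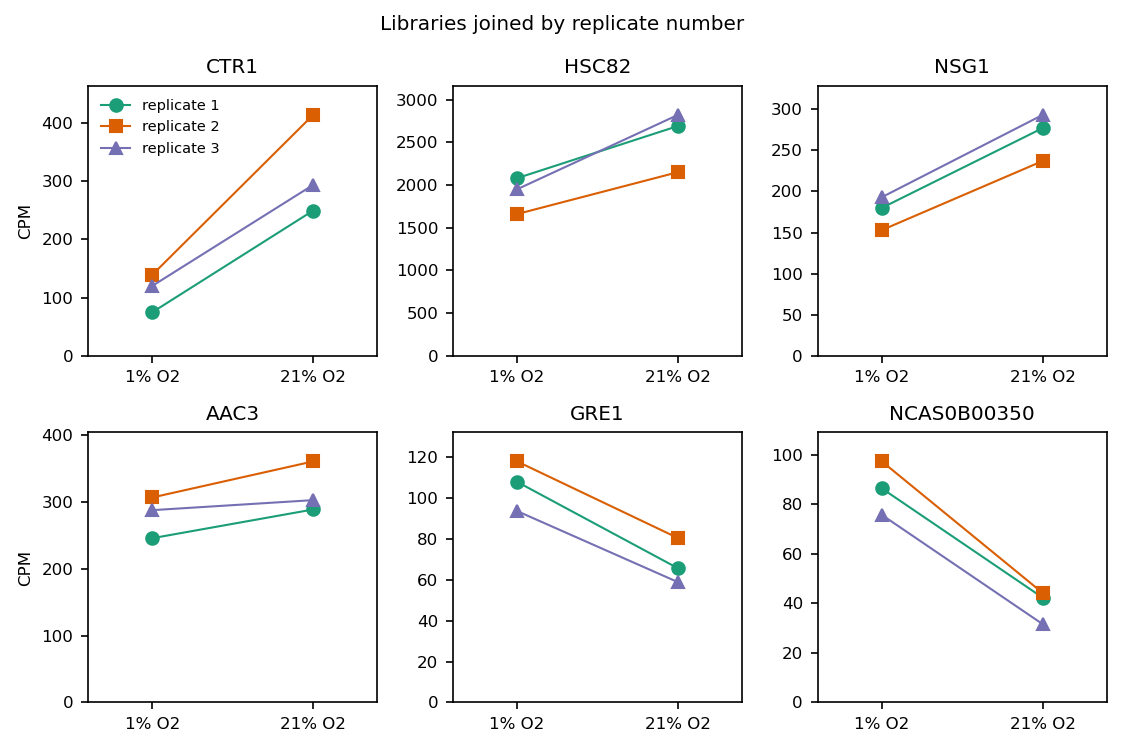
The plot of paired libraries shows CPM of the 6 named genes whose SE shrank most with the replicate block, with a line from hypoxia to normoxia for each replicate number. The 3 lines of NSG1 run nearly side by side at different heights, with log2 differences of −0.62, −0.63 and −0.60, whereas those of AAC3 were less alike, at −0.23, −0.24 and −0.07.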

How the data were processed

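The authors deposited raw read counts per gene. The submitters' processing notes name TopHat2, an aligner, and HTSeq 0.6.0, a read counter. The genome build, annotation and strand setting are not given in the sources used here. The 5 counter entries of each file were dropped; reads outside genes were the only kind above 0. Of 5648 genes, 5589 were in the annotation table of assembly ASM23734v1, used for symbols and neighbours, and 4484 had a symbol. Promoter and protein sequences were not used here.

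The 6 libraries were fitted alone with edgeR 4.0.16 in R 4.3.3 (TMM, filterByExpr with a minimum count of 10, glmQLFit and glmQLFTest, two-sided, Benjamini-Hochberg adjustment, threshold 0.05). This left 5559 genes tested and 89 not tested, 7 of them at 0 in all libraries. The SE of a log2 fold change is its size divided by the square root of F. On simulated data with 50 genes per fold size, 100% were recovered at log2 −1, −0.5 and 1 and 96% at 0.5, and in this fit of 5557 genes 15 simulated without a change were called. Every simulated gene had the same common dispersion, and genes at low levels were left out when the changed genes were drawn. Recovery of genes with few counts or a wider spread between replicates was therefore not tested. The replicate numbers were taken as pairs in an alternative: deviations from the group means correlated at 0.152, 0.307 and 0.137 between libraries of the same number, all above the limit of 0.1, and at −0.251 to 0.0954 between different numbers. Deviations cancel within a group, so positive values for the same number lower those between different numbers by construction. The labels do not say that a number marks a shared day or culture. The other alternatives were DESeq2 1.42.0, other scalings, no low-count filter, and leaving out each library.

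The 45 gene lists, by S. cerevisiae gene name, matched 1157 of 1347 entries, were chosen with earlier results of these data known, and are described by counts and medians with no test of the list. Named were the 12 largest rises and 12 largest falls with a mean log2 CPM of at least 4 and no overlap, up to 4 called members per list and direction, all regulators and gene pairs, and the 5 called genes per direction with the highest mean CPM. Further members and neighbours were chosen after their values were seen.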

Additional observations from a re-analysis of the deposited data

How the results depend on the processing

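With the replicate block, 741 genes were called, 302 higher and 439 lower, against 361, 147 and 214 without it. DESeq2 called 450 genes, other size factors 363, total counts 353 and no low-count filter 361, and 342 to 360 of the 361 genes stayed called under each of these. Leaving out 1 library gave 169 to 411 called genes, 61 to 169 higher and 108 to 242 lower, with 4 to 7 at least 2-fold higher and 19 to 32 at least 2-fold lower; the most at least 2-fold lower came without normoxia replicate 3. In all, 152 of the 361 genes were called in every alternative. Over the alternatives, 8 to 14 peroxide and superoxide genes, 17 to 21 ergosterol genes, 6 to 8 complex IV subunit genes and 5 to 9 complex III genes were lower. Of the 145 named genes, 5 lost their call with total counts, 1 without the low-count filter, none with DESeq2, other size factors or the block, and 13 to 48 without 1 library. The block added 3 calls. The log2 fold changes that turned in sign were all of regulator genes not called: MOT3 at 0.0031 with total counts, 0.00025 without the low-count filter, and others without 1 library. There MOT3 ranged between −0.059 and 0.031, MAC1 between −0.117 and 0.00019, ECM22 between −0.05 and 0.048, AFT1 between −0.108 and 0.013, HAP3 between −0.111 and 0.145, and HAP2 between −0.014 and 0.142. The cause of these changes was not tested. Genes with few counts had less precise fold changes, with a median SE of 0.305 under a mean log2 CPM of 2 and 0.055 between 8 and 10.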
